A study of Mus musculus with 17 samples.

Results

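The change in gene expression that accompanied 6 weeks of tumour growth was compared between 2 subsets of splenic CD11b+ myeloid cells in mice. For every gene, the 6-week change in polymorphonuclear cells was subtracted from the 6-week change in monocytic cells. This subset difference is positive where a gene rose more, or fell less, in the monocytic cells. It uses 12 of the 17 Affymetrix Mouse Gene 1.0 ST arrays of the series, chosen by their labels for subset and stage, and covers 19938 genes. The 4 groups are monocytic cells (Mo, labelled CD11b+L6G-Ly6C+) from mice injected 6 weeks before (3 arrays) and from naive mice (3 arrays), and polymorphonuclear cells (PMN, labelled CD11b+L6G+Ly6C-) from mice injected 6 weeks before (2 arrays) and from naive mice (4 arrays). The injected mice had received 100000 Her-2/CT26 cells under the skin, a line derived from the CT26 colon carcinoma, and the naive mice had received none. All mice were female BALB/c. The spleens were pooled, CD11b+ cells were enriched on magnetic columns, and each subset was sorted by flow cytometry. The stated question of the study is what makes these cells more suppressive as a tumour grows.

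Myeloid-derived suppressor cells are immature or activated myeloid cells that accumulate in tumour-bearing hosts and restrain T cells. In mice a Ly-6C-high monocytic kind and a Ly-6G-high granulocytic kind are told apart. Neutrophils make their granule proteins in a fixed order as they mature: azurophil proteins such as myeloperoxidase first, in promyelocytes, then specific and gelatinase granule proteins. Monocytes descend from a progenitor that still transcribes azurophil genes, and mature monocytes can present antigen on MHC class II and respond to type I interferon.

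Median intensity per array ran from 95.3 to 104 (Mo, 6 weeks), 108 to 114 (Mo, naive), 81.0 to 82.4 (PMN, 6 weeks) and 91.3 to 94.7 (PMN, naive). All values below are log2 intensities or differences of them. The subsets appeared to have been normalized apart, so that no Mo level was tested against a PMN level. Ccr2 and Ly6g lay higher on all arrays of the subset that each marks. The Ly6C genes Ly6c1 and Ly6c2 were measured only by features of several symbols and were not checked. S100a8, also chosen as a PMN marker, rose in 6-week Mo cells, as given below. Other chosen markers, such as Csf1r and Csf3r, are not shown here. The monocyte receptor gene Ccr2 lay at 12.05 to 12.32 on the Mo arrays and at 6.17 to 6.78 on the PMN arrays. Ly6g, which encodes the granulocyte sorting antigen, lay at 6.56, 8.95 and 6.43 on the 6-week Mo arrays, at 5.97, 6.05 and 6.18 on the naive Mo arrays and at 10.21 or higher on all PMN arrays. For Ly6g, 6-week Mo replicate 2 thus stood above the other Mo arrays. The same array was the highest Mo array for the neutrophil receptor gene Cxcr2, at 7.25, against 5.46 to 6.09 on the other 5. The labels do not say whether replicates came from separate pools of spleens, so p-values measure the spread between arrays, which may be technical. In sorted bulk samples, a smaller number of cells of 1 type and less RNA per cell cannot be told apart.

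The subset difference passed in 3487 of 19938 genes (17.5%) at an adjusted p below 0.05 in limma. It was positive in 1290 genes (6.47%) and negative in 2197 (11%). A difference of at least 1 on the log2 scale, which is 2-fold, was found in 224 genes in the positive direction (1.12%) and 679 in the negative direction (3.41%). The Mo change passed in 9204 genes (46.2%), of which 4341 rose (21.8%) and 4863 fell (24.4%). The PMN change passed in 13047 genes (65.4%), of which 5075 rose (25.5%) and 7972 fell (40%). The median change over all genes was -0.09 in Mo and -0.18 in PMN. Across genes the changes correlated with a Pearson r of 0.69, which is a description, since genes are not independent replicates. Centring the arrays on their medians raised all Mo changes by 0.12 and all PMN changes by 0.20, and 553 differences were then positive and 2041 negative. The positive share was then 21.3%, against 37.0% on the deposited scale and 36.5% after joint quantile normalization. The count rested in part on the 2 PMN arrays of the 6-week stage: it was 2145 without replicate 1 and 2098 without replicate 2.

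Genes were then sorted by which changes passed. A change was called shared where both subsets moved the same way and the difference did not pass (5853 genes, 29.4%), and unequal where both moved the same way and the difference passed (809 genes, 4.06%). It was called Mo only (637 genes, 3.19%) or PMN only (1749 genes, 8.77%) where 1 change and the difference passed and the other change did not. It was called opposite where both passed with opposite signs (278 genes, 1.39%). A further 5985 genes (30%) had 1 change that passed and no difference that did, and stayed unsorted, and in 14 (0.0702%) the difference alone passed. Single arrays moved these counts: without 6-week Mo replicate 3, 2736 genes were shared, 364 Mo only and 151 opposite. Without 6-week PMN replicate 1, 417 were unequal, 1123 PMN only and 148 opposite, and without replicate 2 the counts were 469, 1119 and 148, with 356 Mo only. Without naive Mo replicate 1, 3070 were shared and 473 unequal. Without naive Mo replicate 2, 3654 were shared, 464 unequal, 423 Mo only and 169 opposite, and without 6-week Mo replicate 2, 3325 were shared and 482 unequal. With a 2-fold minimum, 313 genes were shared (1.57%), 247 unequal (1.24%), 123 Mo only (0.617%), 324 PMN only (1.63%) and 124 opposite (0.622%). Of the 2-fold counts, Mo only was 186 without 6-week Mo replicate 1, PMN only was 487 without naive Mo replicate 1, and opposite was 78 without 6-week Mo replicate 3.

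Many falls and shared changes were also counted among genes with little or no expected signal. Among 1190 genes for smell and pheromone receptors, not known to work in these cells, 591 fell in Mo, 682 fell in PMN and 436 were shared (36.6%, beside 29.4% of all genes), with median changes of -0.32 and -0.36. Their falls numbered 277 in Mo and 300 in PMN after centring, and 126 and 361 after joint quantile normalization. Of their differences 4 were positive and 0 negative. Their 95th percentile lay at 6.35 to 6.81 (Mo, 6 weeks), 6.94 to 7.29 (Mo, naive), 6.53 to 6.58 (PMN, 6 weeks) and 7.05 to 7.33 (PMN, naive). Of the genes below, the Mo means at both stages lay under these levels for Ptgs2, Cxcl2, Slc7a11, Padi4, Ceacam10, Chil5, Tmem45a2, Stfa2, Stfa3 and Cd3d. The PMN means did so for Vcan, Ctsg, Saa3, Ifi205, Ifi44l, Gins1, Flt3, Myc, Gzma and Spink2. The size of a change in that subset is uncertain for these genes.

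Rises made up most of the 2-fold classes. Of the shared genes 281 rose and 32 fell, of the Mo-only genes 86 rose and 37 fell, and of the PMN-only genes 313 rose and 11 fell. Among unequal genes, 34 rose more in Mo and 202 rose more in PMN, while 8 fell more in Mo and 3 fell more in PMN. Taken by subset, 778 genes changed at least 2-fold in Mo and 2007 in PMN. Both lists held 388 genes, and 385 of them moved the same way, which is 49.5% of the Mo list and 19.2% of the PMN list.

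**Figure D1:**
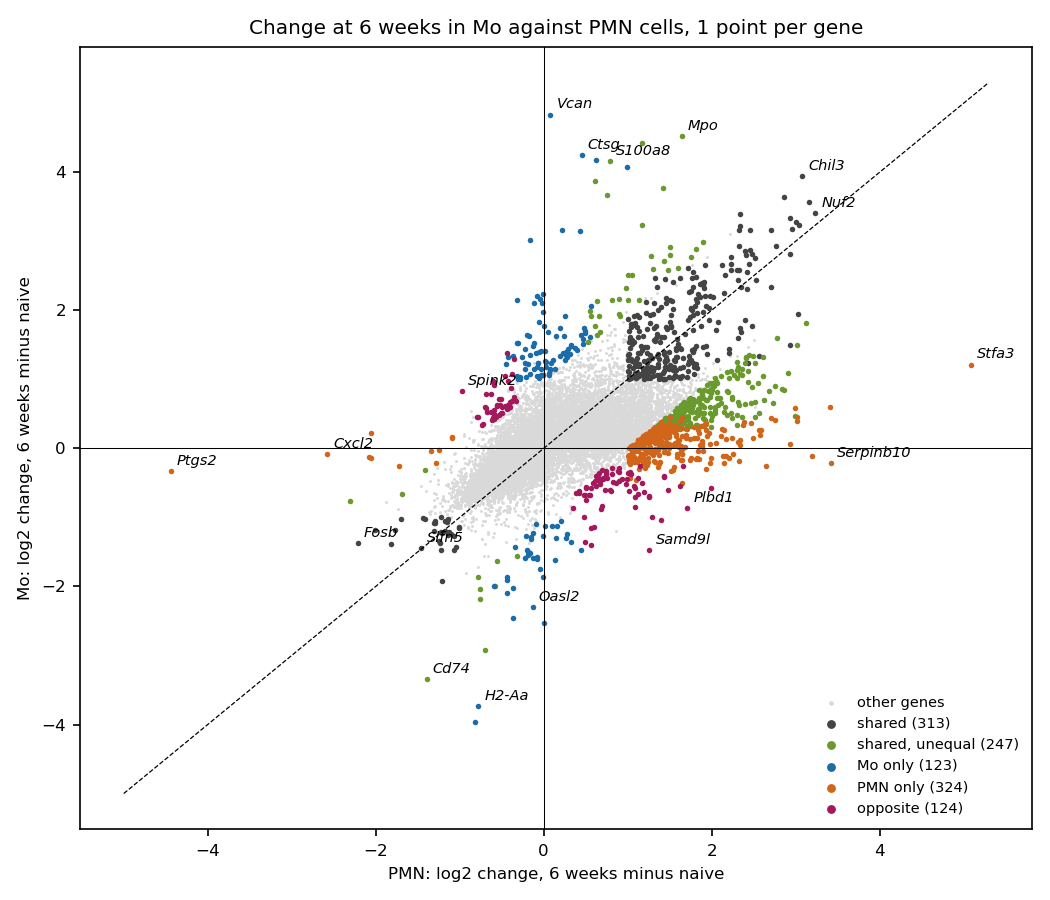
Each point is 1 gene, placed by its Mo change (y axis) and its PMN change (x axis), 6 weeks minus naive on the log2 scale. Coloured points are the genes of the 5 classes with a 2-fold minimum, with their number in the legend, and the dashed line marks equal change. Shared rises such as Nuf2 lie near the dashed line, Vcan and Ctsg lie high near a PMN change of 0, and Ptgs2 and Stfa3 lie far to the left and right with small Mo changes.

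The largest difference of any gene was that of Vcan (feature 10410931, chromosome 13, 89655309 to 89743027 on GRCm38.p6), which encodes versican, a large proteoglycan of the extracellular matrix. It lay at 11.33, 11.37 and 11.37 on the 6-week Mo arrays, against 6.15, 6.66 and 6.77 on the naive Mo arrays. In PMN it lay at 5.33 and 5.75 at 6 weeks, against 5.38 to 5.61 in naive mice. The Mo groups are far apart and the PMN groups overlap at the bottom of the scale. The Mo change was 4.83 ± 0.22 (SE), a 28.5-fold rise, the PMN change was 0.08 ± 0.24, and the difference was 4.76 ± 0.32 (limma, adjusted p = 1.76e-07).

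The azurophil serine protease genes Ctsg, Elane and Prtn3 rose in Mo, with smaller changes in PMN. Ctsg, which encodes cathepsin G, lay at 9.75, 10.71 and 11.38 at 6 weeks and at 6.27, 6.45 and 6.38 in naive Mo cells. PMN arrays had 6.28 and 6.36 at 6 weeks and 5.64 to 6.03 in naive mice, and the difference was 3.79 ± 0.38 (adjusted p = 5.47e-06). The neutrophil elastase gene Elane rose by 4.18 ± 0.26 in Mo and had a PMN change of 0.63 ± 0.28, with a difference of 3.55 ± 0.38. Under median centring or joint quantile normalization the PMN change of Elane passed as well and the gene became unequal, as did Ctsg under joint quantile normalization. Both subsets raised the myeloperoxidase gene Mpo (Mo 4.53, PMN 1.64, difference 2.89 ± 0.39) and the proteinase 3 gene Prtn3 (Mo 3.67, PMN 0.76, difference 2.91 ± 0.39), each by more in Mo.

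Of 12 measured azurophil genes, 8 rose and 0 fell in Mo, and 5 rose and 0 fell in PMN. The difference was positive in 6 and negative in 1, with a median of 1.45, beside 0.07 over all genes. Of all genes, 21.8% rose and 24.4% fell in Mo, and 25.5% rose and 40% fell in PMN. Their differences were positive in 6.47% and negative in 11%. The negative difference of the list was that of Clec12a, at -0.18 in Mo and 2.33 in PMN. Clec12a was counted in the list but encodes an inhibitory lectin receptor, not a granule enzyme. The protease inhibitor gene Serpinb1a rose in both, by 2.82 in Mo and 2.93 in PMN (difference -0.12, 95% interval -0.85 to 0.62, adjusted p = 0.869).

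Alarmin and granule genes that naive PMN already expressed near the top of the scale rose mainly in Mo. S100a8, which encodes a subunit of calprotectin, lay at 10.99, 12.20 and 11.60 on the 6-week Mo arrays and 6.87, 7.52 and 7.93 on the naive ones. On PMN arrays it lay at 13.12 and 13.20 at 6 weeks and 12.20 to 12.55 in naive mice, where the highest value of any gene on any array was 14.28. The difference was 3.37 ± 0.40 (adjusted p = 3.02e-05), and its partner S100a9 differed by 3.27 ± 0.36. Both became Mo only under joint quantile normalization. Lcn2, which encodes the siderophore-binding lipocalin, rose by 4.43 in Mo and 1.17 in PMN. The granule gene Ngp was Mo only (4.08 ± 0.44, PMN 0.99 ± 0.47), although its PMN arrays did not overlap either, at 13.04 and 12.98 against 11.66 to 12.31. How far the top of the scale limits the PMN changes was not tested. The acute-phase gene Saa3 lay at 7.74, 10.03 and 10.75 in 6-week Mo cells and 6.40 to 6.66 in naive ones, and between 5.71 and 5.95 on all PMN arrays.

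Other granule genes went the other way. Of 18 specific and gelatinase granule genes, 10 rose in Mo and 17 in PMN, and 0 fell in either. For this list the difference was positive in 3 and negative in 8 (median -1.01). All-gene shares were 21.8% for Mo rises, 25.5% for PMN rises, and 6.47% and 11% for positive and negative differences. Cd177, Lyz2 and Cybb had Mo changes of -0.14, -0.08 and -0.26 and rose in PMN by 2.21, 1.64 and 1.55. Lyz2 encodes lysozyme. The leukotriene B4 receptor gene Ltb4r1 moved likewise, by 0.27 in Mo and 2.15 in PMN. Cybb, which encodes the catalytic subunit of the phagocyte NADPH oxidase, lay between 13 and 13.08 at 6 weeks and at 13.27, 13.32 and 13.35 in naive Mo cells. In PMN it lay at 13.31 and 13.29 at 6 weeks and 11.37 to 11.93 in naive mice (difference -1.81 ± 0.21, adjusted p = 2.14e-05). Cybb was thus near the top of the scale in Mo at both stages. How far this limits its Mo change and the difference was not tested. Camp and Ltf, which encode the antimicrobial proteins cathelicidin and lactoferrin, were shared, and both were highest among Mo arrays in 6-week replicate 2.

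Among 18 mature neutrophil genes, 10 rose and 1 fell in Mo, and 14 rose and 1 fell in PMN. For these genes the difference was positive in 5 and negative in 7. Of all genes, 21.8% rose and 24.4% fell in Mo, and 25.5% rose and 40% fell in PMN. Their differences were positive in 6.47% and negative in 11%. Padi4, whose enzyme citrullinates histones, had a Mo change of 0.14 and rose by 2.17 in PMN. Il1r2, the decoy receptor for interleukin 1, rose by 3.78 in Mo and 1.43 in PMN. The summed mean intensity of the list ran from 409 to 823 on the 6-week Mo arrays, 177 to 204 on naive Mo arrays, 3623 to 3789 on 6-week PMN arrays and 1825 to 2140 on naive PMN arrays. The part of neutrophil RNA in the Mo changes was not tested.

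**Figure D2:**
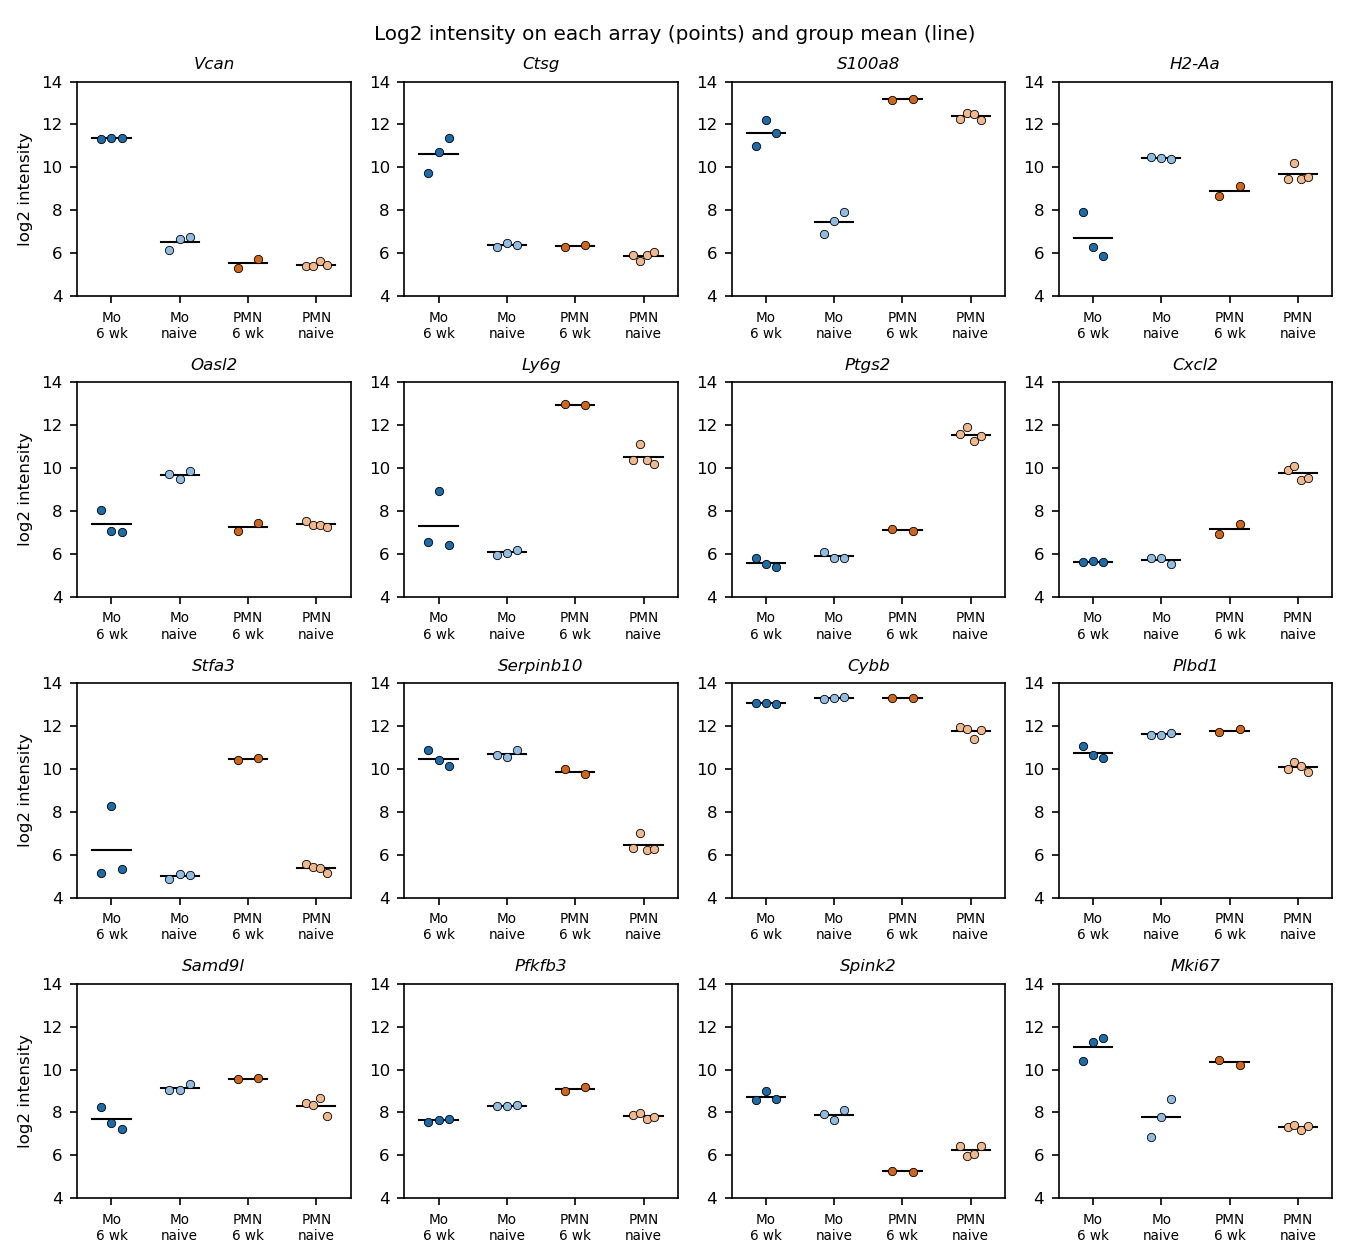
Log2 intensity (y axis) of 16 genes on each array of the 4 groups (x axis: Mo at 6 weeks, Mo naive, PMN at 6 weeks, PMN naive), with a line at each group mean. Vcan, Ctsg and S100a8 are high in 6-week Mo cells, Ptgs2 and Cxcl2 are high in naive PMN only, and 6-week Mo replicate 2 stands above the other Mo arrays for Ly6g (8.95) and Stfa3 (8.26).

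The genes that fell in Mo and not, or less, in PMN were led by MHC class II genes. H2-Aa, the class II alpha chain of the A molecule, lay at 7.93, 6.30 and 5.85 at 6 weeks and at 10.47, 10.42 and 10.39 in naive Mo cells. PMN arrays had 8.66 and 9.13 at 6 weeks and 9.45 to 10.19 in naive mice. The difference was -2.95 ± 0.55 (adjusted p = 0.00136), and that of H2-Ea was -3.14 ± 0.60. H2-Ab1 (difference -2.22) and the invariant chain gene Cd74 (difference -1.95) fell in both subsets, by more in Mo. The Cd74 difference was lost without 6-week PMN replicate 2 and after joint quantile normalization. Ciita, the master regulator of class II transcription, fell by 1.12 in Mo and 0.45 in PMN.

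Of 13 measured class II genes, 9 fell and 0 rose in Mo, 8 fell and 1 rose in PMN, and the difference was negative in 5 (3 after joint quantile normalization) and positive in 0 (median -0.29). Markers of other antigen-presenting cells fell too, beside falls in 24.4% of all genes in Mo and 40% in PMN. Of 16 B cell markers, 11 fell in Mo and 14 in PMN (6 and 13 after centring, 2 and 14 after joint quantile normalization). Of 15 dendritic cell markers, 11 fell in Mo and 10 in PMN (7 and 6 after centring, 7 and 7 after joint quantile normalization), with median changes of -0.40 and -0.43, beside -0.32 and -0.36 for the smell and pheromone receptor genes. The summed mean intensity of the B cell list ran from 193 to 237 on 6-week Mo arrays, 252 to 278 on naive Mo arrays, 201 to 218 on 6-week PMN arrays and 331 to 400 on naive PMN arrays. For dendritic cell markers the ranges were 122 to 152, 183 to 201, 91.3 to 102 and 138 to 150 in the same order. Their part in the class II changes was not tested. Macrophage and dendritic genes that fell in Mo with a difference included Cd209a (-1.75, PMN -0.04) and the sialoadhesin gene Siglec1 (-1.55, PMN -0.32).

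Type I interferon-stimulated genes fell in Mo almost throughout and had no common direction in PMN. Of 25 measured genes, 24 fell and 0 rose in Mo (median -1.14), while 4 rose and 4 fell in PMN (median -0.09). The PMN counts moved with the scale, to 7 up and 2 down after centring and 2 up and 11 down after joint quantile normalization. The difference was negative in 21 and positive in 0, with a median of -1.19. By class, 16 were Mo only, 4 opposite, 3 shared and 1 unequal. Of the 4, Oas3, Ifit2 and Stat2 stayed opposite after centring, and Ifit2 and Dhx58 after joint quantile normalization. Without 6-week PMN replicate 2, the difference passed in 13 genes, with the lone remaining array assumed to vary like the other groups. It passed in 21 after centring and in 19 after joint quantile normalization. Of all genes, 24.4% fell in Mo, 25.5% rose and 40% fell in PMN, and 11% had a negative difference.

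Many such genes carry an interferon-stimulated response element in their promoters. Promoter sequences from RefSeq (GRCm38.p6) were found for 17 of the 25 genes, and an element-like motif, 2 GAAA blocks with 2 bases of any kind between them on either strand, stood within 250 bases before the start in 6 of them (35.3%), against 936 of 27025 genes with a promoter sequence (3.46%). The motif was found before Ifit1, Ifit3, Oas1a, Oas3, Rsad2 and Stat2. In the same way, 4 of 8 class II genes held the CCAAT-type Y box CTGATTGG (50.0%), against 1198 of 27025 (4.43%). These were H2-Aa, H2-Eb1, H2-Eb2 and H2-Oa, and only H2-Aa had a difference that passed. A match is a description of letters, not a site that was tested. Stretches of 120 bases are shown for 3 interferon-stimulated genes (Oas3 and Stat2, opposite, and Oas1a, Mo only) and for H2-Aa, each 5′ to 3′ on the strand of the gene, with the motif in capitals (in Stat2 it lies on the other strand, and in Oas1a overlapping matches run together):
Oas3, chr5:120777670-120777789, minus strand: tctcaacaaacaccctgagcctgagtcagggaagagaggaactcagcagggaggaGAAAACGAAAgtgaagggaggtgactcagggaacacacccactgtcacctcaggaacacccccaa
Stat2, chr10:128270248-128270367, plus strand: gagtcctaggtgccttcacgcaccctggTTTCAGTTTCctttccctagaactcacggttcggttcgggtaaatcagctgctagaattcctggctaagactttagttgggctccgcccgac
Oas1a, chr5:120907526-120907645, minus strand: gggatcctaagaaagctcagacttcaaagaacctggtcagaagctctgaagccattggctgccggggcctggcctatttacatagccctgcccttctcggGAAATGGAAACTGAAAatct
H2-Aa, chr17:34287824-34287943, minus strand: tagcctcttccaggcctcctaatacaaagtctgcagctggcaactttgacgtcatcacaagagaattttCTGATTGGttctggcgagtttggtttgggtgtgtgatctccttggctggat

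Stat2, which encodes a transcription factor of the interferon response, lay at 8.85, 8.63 and 8.68 on the 6-week Mo arrays and at 9.40, 9.53 and 9.72 on the naive ones. In PMN it lay at 8.28 and 8.26 at 6 weeks and 7.47 to 7.74 in naive mice, so that neither pair of groups overlapped and the directions were opposite (difference -1.52 ± 0.15, adjusted p = 4.26e-06). Oas3, which encodes a synthase that senses double-stranded RNA, was also opposite, at -1.39 ± 0.18 in Mo and 0.56 ± 0.19 in PMN. Stat2 and Oas3 became Mo only under joint quantile normalization, where their PMN rise did not pass. Oas1a, with the same kind of enzyme product, was Mo only (-0.99, PMN 0.19).

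Oasl2 and Ifi44l had the most negative differences of the list. Oasl2 lay at 8.06, 7.06 and 7.03 at 6 weeks and at 9.71, 9.48 and 9.87 in naive Mo cells, and between 7.07 and 7.54 on all PMN arrays (difference -2.17 ± 0.29, adjusted p = 8.84e-05). For Ifi44l the Mo arrays had 10.32, 8.85 and 7.97 at 6 weeks and 11.36 to 11.76 in naive mice, with a difference of -2.09 that was lost without 6-week PMN replicate 2. The difference of Ifi205, another interferon-inducible gene, was -2.54 and was lost in the same way. Its 6-week Mo arrays lay at 8.80, 6.51 and 6.11. Replicate 1 was the least changed 6-week Mo array for each of these genes and for H2-Aa. Rsad2 (-1.20 in Mo, -0.81 in PMN) and Ifit1 (-1.55 and -0.71) fell in both subsets, with differences that did not pass. Cxcl10, an interferon-induced chemokine gene, was Mo only (-1.52, PMN -0.16).

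**Figure D3:**
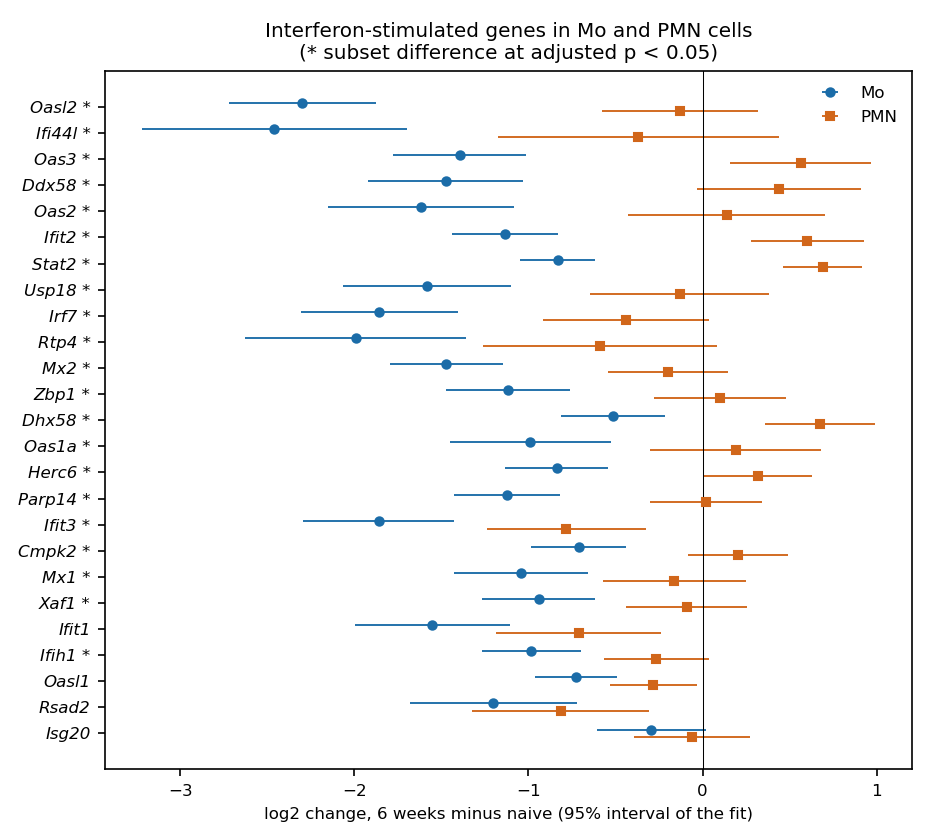
Change of the 25 measured interferon-stimulated genes (6 weeks minus naive, log2 scale, x axis) in Mo (circles) and PMN (squares), with the 95% interval of the limma fit as a bar and an asterisk where the difference passed. The Mo points lie left of 0 throughout, while the PMN points lie on both sides, with Oas3, Ifit2, Stat2 and Dhx58 right of 0 with intervals that leave it out.

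Of the 11 PMN-only falls of at least 2-fold, Ptgs2 had the largest difference. Ptgs2 (feature 10350516, chromosome 1, 150100031 to 150108234), which encodes the inducible prostaglandin synthase COX-2, lay at 5.83, 5.53 and 5.38 on the 6-week Mo arrays and at 6.08, 5.83 and 5.83 on the naive ones. It lay at 7.18 and 7.05 on the 6-week PMN arrays and at 11.26 to 11.90 on the naive ones. Mo levels were thus near the bottom of the scale at both stages. The Mo change was -0.33 ± 0.17, the PMN change was -4.44 ± 0.18, which is 21.7-fold lower at 6 weeks, and the difference was 4.11 ± 0.25 (adjusted p = 3.84e-08). Cxcl2, a neutrophil chemoattractant gene, had a Mo change of -0.08 and fell by 2.58 ± 0.20 in PMN, and the chemokine gene Ccl3 had a Mo change of 0.22 and fell by 2.05 ± 0.39 in PMN. The transcription factor genes Egr1 (Mo -0.14, PMN -2.05) and Egr2 (Mo -0.26, PMN -1.72) were PMN only as well, although the Egr2 difference was lost without 6-week PMN replicate 2.

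Of 20 immediate early genes, a class that is also switched on during cell isolation, 13 fell and 1 rose in Mo, 14 fell and 0 rose in PMN, and the difference was positive in 4 and negative in 1. Falls numbered 9 in each subset after centring, and 14 in Mo and 18 in PMN after joint quantile normalization. By class, 3 were PMN only and 8 shared. Atf3 was shared (-1.38 in Mo, -1.82 in PMN), as was Fosb (-1.38 and -2.22). Nr4a1, a nuclear receptor gene, was unequal (-0.76 and -2.30). Of 19 chemokine genes, 9 fell in Mo and 11 in PMN (3 and 6 after centring, 4 and 10 after joint quantile normalization), and the difference was positive in 4 and negative in 4. Beside the falls in both lists, 24.4% of all genes fell in Mo and 40% in PMN. Among the 1190 smell and pheromone receptor genes, 591 fell in Mo and 682 in PMN. The summed mean intensity of the immediate early list ran from 538 to 813 (Mo, 6 weeks), 974 to 1289 (Mo, naive), 668 to 691 (PMN, 6 weeks) and 1060 to 1574 (PMN, naive), and its part in the other changes was not tested.

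The largest PMN-only rise was that of the stefin gene Stfa3 (feature 10439299, chromosome 16, 36450537 to 36455392), a cysteine protease inhibitor. It lay at 5.13, 8.26 and 5.31 on the 6-week Mo arrays and 4.89 to 5.11 on the naive ones, and at 10.43 and 10.50 on the 6-week PMN arrays and 5.16 to 5.58 on the naive ones. Most of the Mo change of 1.21 ± 0.50 came from replicate 2. The difference was -3.87 ± 0.74 (adjusted p = 0.00155). Stefin genes are near-identical copies of each other, and the array may not separate them: Stfa2 read 0.60 in Mo and 3.41 in PMN.

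Serpinb10, which encodes an intracellular serpin, rose in PMN, whereas its Mo level was similar at both stages. It lay between 10.14 and 10.87 on all Mo arrays, and at 9.99 and 9.74 on the 6-week PMN arrays against 6.22 to 6.99 on the naive ones (difference -3.63 ± 0.33, adjusted p = 2.02e-06). Tmem45a2, Ceacam10 and the chitinase-like gene Chil5 had Mo changes of -0.11, -0.25 and 0.07 and rose by 3.19, 2.65 and 2.94 in PMN. Tmem45a2 and Chil5 lay between 4.31 and 4.87 on all Mo arrays, at the bottom of the scale. Genes that rose in both subsets and more in PMN included Nt5c3, a nucleotidase (Mo 0.47, PMN 3.00), the actin-capping gene Capg (0.66 and 2.73) and the isocitrate dehydrogenase gene Idh1 (0.33 and 2.30). The Mo rise of all 3 did not pass after joint quantile normalization, which made them PMN only.

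Several pattern receptor and metabolic genes rose in PMN with differences. Beside the counts below, 21.8% of all genes rose and 24.4% fell in Mo, and 25.5% rose and 40% fell in PMN. Differences were positive in 6.47% of all genes and negative in 11%. Of 25 Fc, lectin and Toll-like receptor genes, 8 rose and 8 fell in Mo, 15 rose and 3 fell in PMN, and the difference was positive in 2 and negative in 9. Fcgr2b, the inhibitory IgG receptor, had a Mo change of -0.26 and rose by 1.36 in PMN, whereas the lectin gene Clec4e rose by 2.06 in Mo (PMN 0.56, difference 1.5 ± 0.34). For glycolysis and the hypoxia response, 14 genes of 22 rose and 2 fell in Mo, and 14 rose and 1 fell in PMN (14 and 6 after joint quantile normalization). The hexokinase genes Hk2 and Hk3 were unequal, at 0.37 and 0.73 in Mo and 1.66 and 1.85 in PMN. Of 14 genes of MHC class I peptide loading, 1 rose and 3 fell in Mo, and 9 rose and 2 fell in PMN. The difference was negative in 5 of them, among them the peptide transporter genes Tap1 (-0.70) and Tap2 (-0.84) and the proteasome activator gene Psme1 (-1.12). The class I direction in PMN turned with the scale: after joint quantile normalization 2 of the 14 rose and 6 fell in PMN, and Tap1 and Tap2 were Mo only. Of 16 cholesterol synthesis genes, 4 rose and 0 fell in Mo, 6 rose and 3 fell in PMN, and the difference was positive in 3 (1 without 6-week PMN replicate 1) and negative in 5. Msmo1, a sterol oxidase gene, had a Mo change of -0.03 and rose by 1.90 in PMN. Under joint quantile normalization Msmo1, Fcgr2b, Lgals9 and Clec12a became opposite, since their Mo fall passed there.

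Opposite changes of at least 2-fold difference ran in both directions: 75 genes fell in Mo and rose in PMN, and 49 rose in Mo and fell in PMN. Of these, 45 and 14 stayed opposite after centring, and 28 and 14 after joint quantile normalization. Samd9l (feature 10542911, chromosome 6, 3372257 to 3399571), an interferon-inducible growth regulator, lay at 8.28, 7.51 and 7.24 on the 6-week Mo arrays against 9.05, 9.05 and 9.33 on the naive ones. In PMN it lay at 9.55 and 9.62 at 6 weeks against 7.83 to 8.68 in naive mice (difference -2.73 ± 0.32, adjusted p = 2.89e-05). Its PMN rise did not pass after joint quantile normalization. Plbd1, a phospholipase B-like gene, lay at 11.07, 10.66 and 10.50 against 11.55 to 11.69 in Mo, and at 11.73 and 11.83 against 9.86 to 10.32 in PMN (difference -2.57 ± 0.19, adjusted p = 4.79e-07).

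Timp2, an inhibitor of metalloproteinases, had a Mo change of -1.04 and a PMN change of 1.39. The phosphodiesterase gene Pde7b had -1.0 and 1.29, the prostacyclin receptor gene Ptgir -0.85 and 1.09, the glycolytic regulator gene Pfkfb3 -0.69 and 1.26, and the RNA sensor gene Tlr7 -0.65 and 1.12. Plbd1, Timp2, Pde7b, Ptgir, Pfkfb3 and Tlr7 stayed opposite under both scalings. In the other direction, Spink2, a serine protease inhibitor gene, lay at 8.58, 8.99 and 8.62 on the 6-week Mo arrays against 7.67 to 8.12 on the naive ones. It lay at 5.27 and 5.24 on the 6-week PMN arrays against 5.98 to 6.44 on the naive ones, within the levels of the smell and pheromone receptor genes, which had a median PMN change of -0.36, and the part of background in its PMN fall was not tested. S100a10 (0.98 in Mo, -0.60 in PMN), the sterol-linked gene Tmem97 (0.79 and -0.68) and the spermidine synthase gene Srm (0.78 and -0.63) became Mo only after centring, since their PMN fall did not pass there.

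The shared changes were led by the cell cycle. Mki67, the gene of the proliferation antigen Ki-67, lay at 10.40, 11.28 and 11.47 on the 6-week Mo arrays against 6.87, 7.80 and 8.65 on the naive ones. In PMN it lay at 10.47 and 10.21 at 6 weeks against 7.20 to 7.42 in naive mice. The changes were 3.28 ± 0.35 and 3.01 ± 0.37, with a difference of 0.27 (95% interval -0.82 to 1.35, adjusted p = 0.787). The kinetochore gene Nuf2 rose by 3.41 in Mo and 3.23 in PMN, the topoisomerase gene Top2a by 3.24 and 3.04, and Cip2a, an inhibitor of the phosphatase PP2A, by 3.57 and 3.16. The chitinase-like gene Chil3 rose by 3.95 and 3.08 (difference 0.87, 95% interval -0.11 to 1.85), but its difference was 1.30 after joint quantile normalization (adjusted p = 0.0218). Shared falls were fewer, and included Slfn5, a Schlafen gene (-1.44 in Mo and -1.46 in PMN), and the guanylate-binding gene Gbp9 (-1.92 and -1.22), whose difference passed without 6-week Mo replicate 1 (-1.10, adjusted p = 0.00443).

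All 25 mitosis genes rose in both subsets (median 2.66 in Mo and 1.93 in PMN), and 22 were shared. The difference passed in 3, Ccnb2, Kif20a and Kif23, and this count was 1 after centring. It was 16 without 6-week Mo replicate 1, 7 without naive Mo replicate 3, and 1 without naive Mo replicate 1 or 2, 6-week Mo replicate 2 or 3, naive PMN replicate 4, or either 6-week PMN array. Of all genes, 21.8% rose in Mo and 25.5% in PMN, and 6.47% had a positive difference. The DNA replication genes differed more than the mitosis genes. All 24 rose in Mo (median 1.64), whereas 13 rose and 1 fell in PMN (median 0.71), and the difference was positive in 17 and negative in 0. That count was 11 after centring, 8 after joint quantile normalization, 11 without naive Mo replicate 2 or 6-week Mo replicate 2, and 5 without 6-week PMN replicate 2.

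Mcm3, a subunit of the replicative helicase, lay at 9.49, 10.13 and 10.63 on the 6-week Mo arrays against 7.25, 7.48 and 8.0 on the naive ones, and at 7.91 and 7.48 against 6.60 to 6.72 in PMN (difference 1.46 ± 0.32, adjusted p = 0.00463). Gins1, which loads onto the same helicase, was Mo only (1.41, PMN 0.02), a difference lost without 6-week PMN replicate 2. The ribonucleotide reductase gene Rrm1 was shared, at 2.80 and 2.41. Respiratory chain genes were nearly all shared: 23 of 23 rose in Mo and 20 in PMN (18 and 12 after joint quantile normalization), and 19 were sorted as shared, with a median difference of 0.02. Myc (1.22 in Mo, -0.44 in PMN) and the cytokine receptor gene Flt3 (1.32, PMN -0.26) were Mo only, and the granulocyte lineage factor gene Cebpe (Mo 0.31, PMN 1.24) was PMN only.

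**Figure D4:**
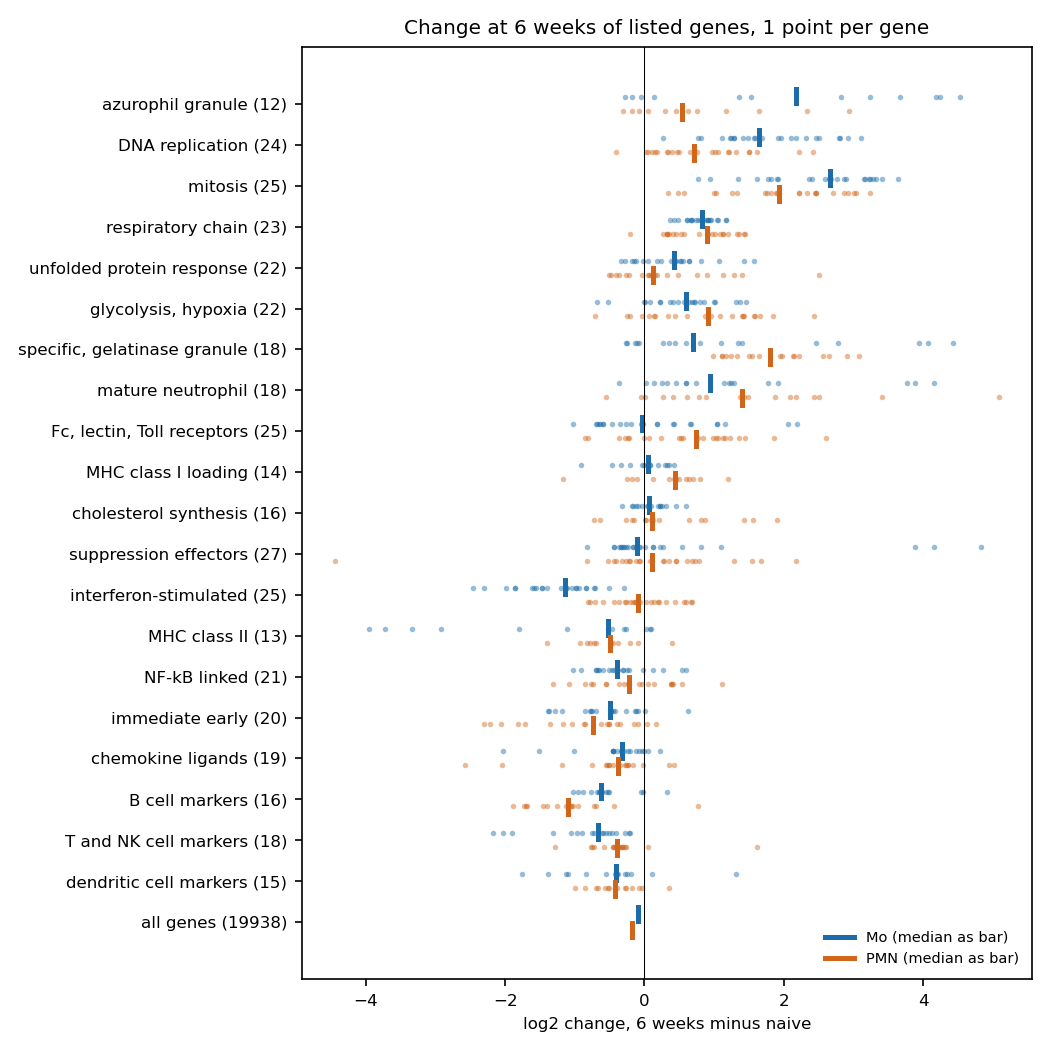
Change of each gene (points) and median (bars) of 20 gene lists and of all genes, 6 weeks minus naive on the log2 scale (x axis), Mo above PMN in each row, with the number of measured genes in brackets. Mitosis genes lie right of 0 in both subsets, interferon-stimulated genes lie left of 0 in Mo and around 0 in PMN, and azurophil genes reach further right in Mo.

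Among all genes, 21.8% rose and 24.4% fell in Mo, and 25.5% rose and 40% fell in PMN. Differences were positive in 6.47% of all genes and negative in 11%. Of 27 genes linked to T cell suppression, 7 rose and 5 fell in Mo, and 11 rose and 5 fell in PMN. For this list the difference was positive in 5 (Vcan, Ptgs2, S100a8, S100a9 and the cystine transporter gene Slc7a11) and negative in 10. Ptgs2 counted as positive through its PMN change of -4.44, not through a rise in Mo. Slc7a11 lay under the levels of the smell and pheromone receptor genes in Mo at both stages. Vcan had the largest difference of any gene, and the lists were chosen with earlier results of these data known. The negative count was 5 without 6-week PMN replicate 2 and 5 after joint quantile normalization. Besides Cybb, the oxidase subunit genes Ncf1 (Mo 0.54, PMN 1.67) and Ncf4 (Mo 1.10, PMN 2.18) rose in both subsets and more in PMN. Lgals9, which encodes galectin-9, was PMN only (Mo -0.07, PMN 1.28). After joint quantile normalization the whole list had 5 up and 6 down in Mo and 5 up and 8 down in PMN. The interleukin 4 receptor gene Il4ra had a small difference of -0.46 ± 0.13 (adjusted p = 0.0217). It was lost under joint quantile normalization and when naive Mo replicate 3 or either 6-week PMN array was left out.

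The arginase gene Arg1, the nitric oxide synthase gene Nos2 and Cd274, which encodes PD-L1, showed no difference that passed. Arg1 lay at 5.95 to 6.10 on the 6-week Mo arrays and 6.06 to 6.25 on the naive ones, and at 5.36 and 5.34 against 5.70 to 5.94 in PMN (difference 0.27, 95% interval -0.05 to 0.59, adjusted p = 0.263). For Nos2 the difference was 0.05 (-0.38 to 0.47, adjusted p = 0.912), and for Cd274 it was 0.29 (-0.15 to 0.73, adjusted p = 0.411). Arg1 and Nos2 lay within the levels of the receptor genes in PMN at both stages, as did Arg1 in Mo, so that their intervals bound no change there. Itgam, which encodes CD11b, had a Mo change of 0.18 and rose by 0.91 in PMN (difference -0.73 ± 0.14), and this difference did not pass after joint quantile normalization. The difference of Ly6g did not pass (-1.19, 95% interval -2.57 to 0.19, adjusted p = 0.252), but without 6-week Mo replicate 2 it was -2.01 (adjusted p = 0.000554).

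Markers of other cells the gates could hold are given beside all genes, of which 17.5% passed for the difference. Over all genes, 24.4% fell in Mo and 40% in PMN. The difference passed in 3 of 16 B cell genes, all positive, and this count was 6 without naive Mo replicate 1, 1 without naive Mo replicate 2 or 3, 0 without either 6-week PMN array and 9 after joint quantile normalization. Ms4a1, which encodes CD20, lay at 6.33, 5.58 and 5.64 (Mo, 6 weeks), 8.05, 6.28 and 6.29 (Mo, naive), 7.20 and 6.87 (PMN, 6 weeks) and 8.36 to 8.97 (PMN, naive), so that naive Mo replicate 1 stood above the other Mo arrays. Of 18 T and NK cell genes, 15 fell and 0 rose in Mo and 13 fell and 1 rose in PMN, with 5 differences negative (3 without 6-week PMN replicate 1) and 1 positive, which was lost when any of 9 of the 12 arrays was left out. The 1 that rose was Cd3d, at -0.55 in Mo and 1.62 in PMN. The granzyme gene Gzma (-2.18 in Mo, -0.76 in PMN) and the chemokine gene Ccl5 (-2.04 and -0.76) were unequal. In PMN 4 fell after centring and 8 after joint quantile normalization. The differences that passed numbered 0 of 11 among erythroid, 1 of 8 among platelet, and 1 of 14 among basophil, mast cell and eosinophil genes. Among epithelial genes 1 of 12 passed, and among stromal genes 0 of 12. The erythroid count was 4 without 6-week Mo replicate 3. The summed mean intensity of the erythroid list ran from 115 to 524 on 6-week Mo arrays, 126 to 186 on naive Mo arrays, 142 to 151 on 6-week PMN arrays and 111 to 113 on naive PMN arrays.

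At 3 weeks the subset difference passed in 1 gene, Vcan (0.00502%). Vcan lay at 8.51, 9.76 and 9.31 on the 3-week Mo arrays and at 5.32 and 5.41 on the 3-week PMN arrays, with a difference from the naive stage of 2.76 ± 0.32 (limma, adjusted p = 0.00334). In the course from naive to 3 to 6 weeks, mean Mo levels of Mpo were 6.45, 6.40 and 10.98, and mean PMN levels of Ptgs2 were 11.56, 11.32 and 7.12. The 3-week values of these genes lay among or next to the naive ones, as did those of Serpinb10, Plbd1 and Samd9l.

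**Figure D5:**
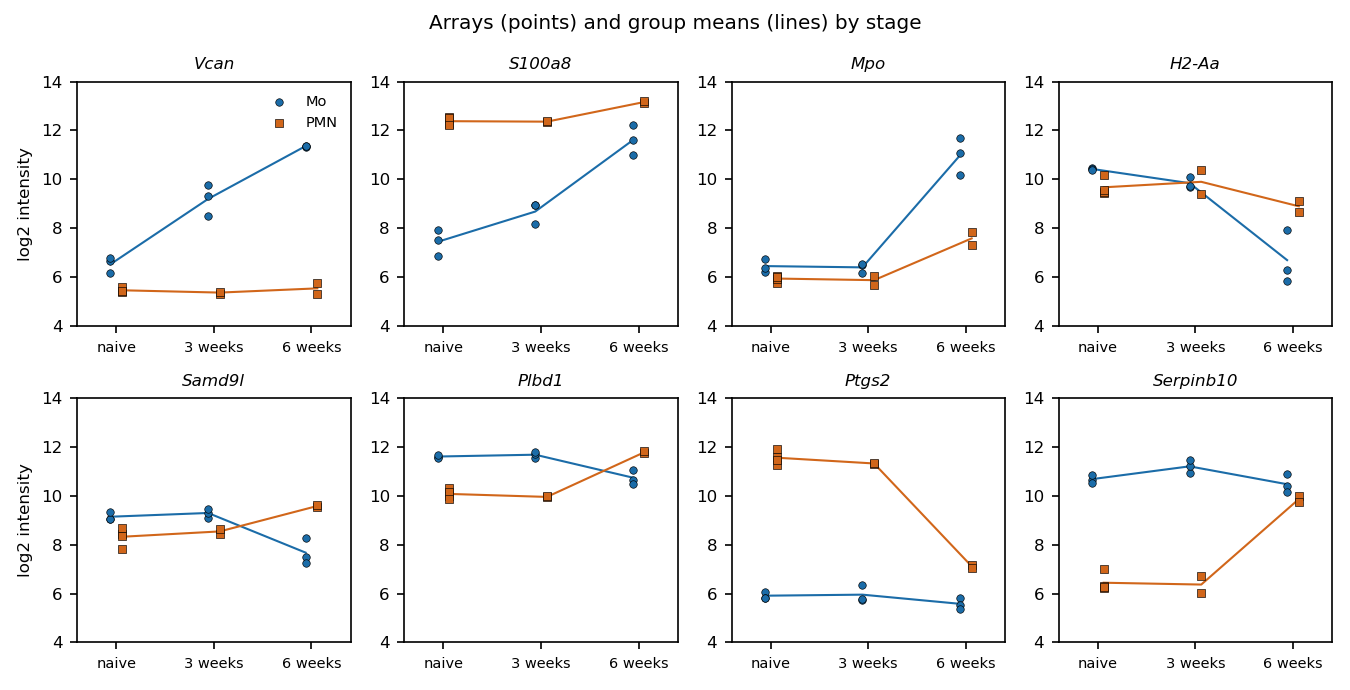
Log2 intensity (y axis) of 8 genes on each Mo array (circles) and PMN array (squares) in naive mice and 3 and 6 weeks after injection (x axis), with lines through the group means. Vcan and S100a8 are higher in Mo at 3 weeks than in naive mice, while Mpo, H2-Aa, Samd9l, Plbd1, Ptgs2 and Serpinb10 move mainly between 3 and 6 weeks.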

How the data were processed

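RNA of sorted splenic CD11b+ cells was measured on 17 arrays. The authors deposited intensities on a linear scale, made with RMA per the submitters' processing notes; the version and settings are not given in the sources used here. They ran from 9.76 to 32095. The test had been planned for log2 values, so log2 was taken first. A median of 942.5 distinct values recurred between 2 Mo arrays, 251 between 2 PMN arrays and 146 across subsets, so the subsets were treated as normalized apart.

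Of 35557 features, 21789 carried 1 gene symbol (21698 matched to RefSeq by Entrez number). The feature with the highest mean stood for each of 19938 genes, with no filter on dim genes. The model held 1 mean per group (6 groups, 17 arrays) and used lmFit, contrasts.fit and eBayes of limma 3.58.1 (R 4.3.3). Tests were two-sided, adjusted by Benjamini-Hochberg over all genes and called below 0.05. Errors of changes are standard errors. The 2 to 4 arrays of a group limit the precision. Alternatives covered scaling, floors and filters on dim genes, array weights, the prior, replicate blocks and each array left out.

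The members, lists and naming rules were chosen with earlier results of these data known. Named genes were the first 5 of each 2-fold class and direction (changing groups without overlap, a mean of at least log2 7 in 1 group; predicted, small RNA, smell receptor and antigen receptor genes skipped), the 4 largest differences of each list, and 10 set genes: Vcan, Itgam, Ly6g, Cd274, Il4ra, S100a9, S100a8, Cybb, Nos2 and Arg1. Ranking unequal genes apart by the direction of the difference, and 2-fold counts under each alternative, were chosen after seeing the data. Other list members named were chosen after their values were seen.

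In simulated data with 19938 genes, 67 genes were changed 1.5-fold, 67 were changed 2-fold and 66 were changed 4-fold. The subset difference recovered 20.9%, 80.6% and 100% of them in that order, with 5 false calls. On the real arrays the difference passed in 3487 genes, and in 2594 after centring. The simulated rates hold for the simulated data only, and recovery and false calls on the real arrays were not tested.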

Additional observations from a re-analysis of the deposited data

Results flagged for a closer look

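The effect of 6 weeks of tumour growth differed between the subsets, by a test of the difference itself, in 3487 genes. Those named here with a positive difference (Mo change minus PMN change, log2 scale) were Vcan (4.76), Ptgs2 (4.11), Ctsg (3.79), Elane (3.55), S100a8 (3.37) and S100a9 (3.27). The negative ones were Stfa3 (-3.87), Serpinb10 (-3.63), Tmem45a2 (-3.30), H2-Ea (-3.14), H2-Aa (-2.95), Cybb (-1.81), Itgam (-0.73) and Il4ra (-0.46). In the 3-week arrays, which enter the 6-week test only through the estimate of the spread, the Vcan difference was 2.76. It was taken from the same naive arrays.

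For 6 of 65 named genes, 1 naive PMN array stood apart from the other 3, and each time it was replicate 2. The gap rule looks at all 4 arrays, and chance meets it in about 1 in 20 groups. The 3.25 genes this gives here are for any of the 4 arrays. Genes on 1 array are not independent, so 3.25 does not measure how unusual replicate 2 is. Replicate 2 was high for Chil5 (5.87), H2-Aa (10.19), H2-Ea (10.81), Ly6g (11.14), Nr4a1 (10.92) and Serpinb10 (6.99). The cause was not tested.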

How the results depend on the processing

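Of 158 named genes, 120 passed for the difference. Of these, 62 passed in all 23 alternatives, 58 did not pass in at least 1, and 0 changed sign while passing. Of the other 38, 20 passed in some alternative. The count of 3487 differences was 6840 with array weights, 445 against a minimum of 0.5 (limma treat) and 2594 after centring. With only the 12 arrays of the 4 groups in the fit, it was 3947. The shared count of 5853 was 2790 after joint quantile normalization, 3723 with a floor at log2 6 and 3522 without dim genes; the 2-fold count of 313 was 483 after centring. With array weights, unequal genes numbered 2722 (376 at 2-fold), Mo only 1306, opposite 698 (215) and PMN only 210 at 2-fold. After centring, Mo only numbered 404 and opposite 116 (68), and joint quantile normalization left 150 unequal genes at 2-fold. The 2-fold minimum alone left 313 shared, 247 unequal, 123 Mo only, 324 PMN only and 124 opposite. Against the minimum of 0.5, which asks more of each change, 268 genes were shared, 5 unequal, 60 Mo only (57 at 2-fold), 352 PMN only and 1 opposite, with the same 5 and 1 at 2-fold. The other causes were not tested.

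With each array left out in turn, differences ran from 2098 (without 6-week PMN replicate 2) to 3683, shared genes from 2736 (without 6-week Mo replicate 3) to 6802, unequal from 417 (without 6-week PMN replicate 1) to 983, Mo only from 356 (without 6-week PMN replicate 2) to 895, PMN only from 1119 (without 6-week PMN replicate 2) to 2102 and opposite from 148 (without 6-week PMN replicate 1) to 367. At 2-fold the ranges were 253 to 411, 176 to 291, 89 to 186, 265 to 487 and 78 to 179 in the same order of classes. Where 1 PMN array was left at 6 weeks, it was assumed to vary like the other groups.

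Arrays share replicate numbers, but deviations from group means of Mo and PMN arrays with the same stage and number correlated at -0.154 to -0.0255. Between 6 weeks and naive, arrays of the same subset and number correlated at 0.46, -0.041 and 0.486 in Mo and 0.0129 and -0.0227 in PMN. Not every pair was above 0.1, so the numbers were not taken as pairs. A replicate block by number gave 3347 differences, and a block by stage and number gave 1980. Under the first, the differences of Atf3 (0.74, adjusted p = 0.0353) and Fosb (1.15, adjusted p = 0.0159) passed. Under the second, 5 replication and 14 interferon-stimulated genes passed, and Mcm3 did not (adjusted p = 0.0541). The classes could not be fitted under the second, which absorbs the stage changes.

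Signal limits some comparisons. At both stages, Ptgs2 and Tmem45a2 lay near the bottom of the scale in Mo. S100a8 and S100a9 lay near the top in PMN, and Cybb near the top in Mo, also at both stages.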

Other observations

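The lists below stand beside all genes, of which 21.8% rose and 24.4% fell in Mo, and 25.5% rose and 40% fell in PMN. The difference was positive in 6.47% of all genes and negative in 11%. Among 16 monocyte genes, 4 rose and 5 fell in Mo (2 and 8 after joint quantile normalization), 4 rose and 4 fell in PMN (5 and 1 after centring, 4 and 8 after joint quantile normalization), and the difference was positive in 3 and negative in 3 (5 without naive PMN replicate 2). Irf8, which directs monocyte and dendritic cell fate, lay at 10.02, 10.32 and 10.61 on the 6-week Mo arrays against 9.46 to 9.89 on the naive ones, and at 7.27 and 7.19 on the 6-week PMN arrays against 7.57 to 8.04 on the naive ones. Neither pair of groups overlapped, and the directions were opposite (difference 1.14 ± 0.25, limma, adjusted p = 0.00385). The PMN fall did not pass after centring, nor the Mo rise after joint quantile normalization. The transcription factor gene Klf4 was Mo only (0.64, PMN -0.37), with a difference lost under joint quantile normalization and without 6-week PMN replicate 2. Cx3cr1, the fractalkine receptor gene of patrolling monocytes, fell by 1.64 in Mo and 0.55 in PMN.

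Of 17 progenitor genes, Myc, Flt3 and Meis1 were Mo only, and Erg, Cd63, Cebpe, Gfi1 and Runx1 were PMN only. Erg, which encodes an ETS factor, had a Mo change of 0.02 and rose by 1.61 in PMN. Of 21 NF-kB-linked genes, 2 rose and 14 fell in Mo, and 6 rose and 9 fell in PMN (1 and 13 after joint quantile normalization). The NF-kB inhibitor genes Nfkbia (Mo -0.47, PMN 0.39) and Nfkbie (Mo -0.65, PMN 0.39) and the apoptosis inhibitor gene Birc3 (Mo -0.31, PMN 0.41) were opposite. Birc3 was not opposite after centring, nor was any of the 3 after joint quantile normalization.

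Of 22 genes of the unfolded protein and amino acid response, 13 rose and 2 fell in Mo, and 8 rose and 4 fell in PMN. After joint quantile normalization the counts were 5 and 3 in Mo, and 5 and 9 in PMN. Psat1, of serine synthesis, was Mo only (1.44, PMN -0.22), while Asns, which makes asparagine, rose by 1.57 in Mo and 2.51 in PMN. Of 15 chemoattractant receptor genes, the difference was positive in 2 and negative in 3, among them Ltb4r1 (-1.88). The positive ones were the chemokine receptor gene Ccr1 (Mo 3.15, PMN 0.43) and Ccrl2 (Mo -0.37, PMN -1.31), of which Ccrl2 was lost without 6-week PMN replicate 1.

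The difference was positive in 3 of 16 ribosomal protein genes (6 after joint quantile normalization) and negative in 1 (5 without naive PMN replicate 2). Of 20 macrophage genes it was positive in 1 (0 after centring) and negative in 3 (8 without naive PMN replicate 2 and 6 without 6-week Mo replicate 1). Of 21 STAT3 pathway and cytokine receptor genes it was positive in 1 and negative in 5. That negative count was 0 after joint quantile normalization or without 6-week PMN replicate 2, and 3 without naive Mo replicate 3 or 6-week PMN replicate 1.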
